A study of Arabidopsis thaliana with 12 samples.

Results

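The dominant allele scrm-D was carried by 6 of the 12 arrays of this series, 3 of scrm-D;mute double mutant seedlings and 3 of scrm-D seedlings, and these carriers were set against the 6 non-carriers, 3 arrays of spch mutant seedlings and 3 of wild type (WT). Groups were read from the sample titles. All plants were Col-0 Arabidopsis thaliana, and RNA came from whole seedlings 5 days after germination, so every tissue of the seedling contributed. Seeds had been kept for 2 days at 4 °C, and seedlings of every genotype grew at 21 °C in days of 18 h light and nights of 6 h. Per the labels, the epidermis of scrm-D;mute is almost wholly made of meristemoids, that of scrm-D of guard cells, and that of spch of pavement cells. The description field of the scrm-D arrays names the double mutant, against their titles, and the titles were followed. The labels do not say whether the alleles were homozygous, or how the biological replicates were kept apart.

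Stomata form from protodermal cells through a short lineage in which the bHLH transcription factors SPCH, MUTE and FAMA act one after the other: SPCH starts the asymmetric divisions that make meristemoids, MUTE ends these divisions, and FAMA completes the guard cells. SCRM, also called ICE1, is a bHLH protein that pairs with each of them, and the scrm-D allele drives epidermal cells into the stomatal lineage. Without SPCH the lineage does not start, and without MUTE the meristemoids do not move on, so the carriers share an allele that promotes the lineage while they differ in how far their cells go along it. The mute mutation is in 1 carrier genotype only and the spch mutation in 1 non-carrier genotype only. A difference between the sides can therefore be read as going with the allele only where both carriers stand on the same side of both non-carriers.

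Of 22746 probe sets, with Affymetrix controls left out, 1312 met that condition and are called agreeing here: all 4 comparisons of a carrier genotype with a non-carrier genotype pointed 1 way and each had an adjusted p under 0.05 in limma. Agreeing probe sets that were higher in carriers numbered 503 (2.21% of those tested) and agreeing probe sets that were lower numbered 809 (3.56%). All 6 carrier arrays lay above all 6 non-carrier arrays in 489 of the 503 (2.15% of those tested) and below them in 766 of the 809 (3.37%). Over all 22746 probe sets, agreeing or not, the sides stood apart this way in 996 and 1231. Calls of 1 sign in all 4 comparisons make such separation likely, so it is no separate support. The mean of the carrier genotypes against the mean of the non-carrier genotypes gave many more calls, 4105 higher (18%) and 3775 lower (16.6%), and 3602 and 2966 of these came without agreement of the 4 genotypes. With each array centred on its median, the share of agreeing probe sets that were higher was 29.6% in place of 38.3%, and that share among the calls on the mean difference was 41.1% in place of 52.1%. The platform annotation pairs 664 of the agreeing probe sets with 1 gene each, 12 with several and 636 with none, so that 279 named genes were higher and 379 were lower. The p-values measure the spread between arrays of 1 genotype. With 2 genotypes a side, an exact permutation test over genotypes could not give a two-sided p below 0.333, and with genotype as a random block the mean difference was called for 852 probe sets higher and 1085 lower.

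**Figure D1:**
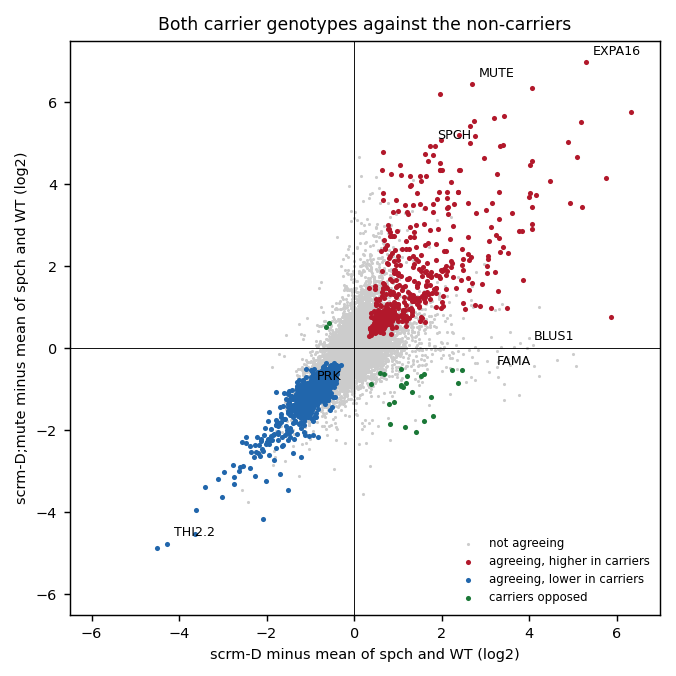
Each point is a probe set, with the log2 difference of scrm-D from the mean of spch and WT on the horizontal axis and that of scrm-D;mute on the vertical axis. Agreeing probe sets higher in carriers (503, red) fall in the upper right and agreeing ones lower in carriers (809, blue) in the lower left, while FAMA and BLUS1 lie far right with scrm-D;mute at or just below 0; green marks the 25 probe sets where the carriers went opposite ways.

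Array medians lay between 6.39 and 6.53 on the log2 scale, and arrays of 1 genotype correlated across probe sets with r from 0.986 to 0.995, against 0.935 to 0.977 between genotypes. The array numbered 4 of scrm-D;mute and that of spch stood apart in the 25S rRNA control, at 6.96 on scrm-D;mute array 4 against 10.84 and 11.06 on the other arrays of that genotype, and at 11.04 on spch array 4 against 8.66 and 9.19. That control averaged 9.62 ± 2.31 in scrm-D;mute, 9.60 ± 0.56 in scrm-D, 9.63 ± 1.25 in spch and 7.11 ± 0.49 in WT (SD, n = 3 each). Without both arrays 466 agreeing probe sets were higher and 828 lower, and 404 and 693 of them were among the 503 and 809. Among bacterial control transcripts Dap was high in WT, Lys in spch, Trp in scrm-D;mute and Phe in scrm-D. A transcript was taken as absent in a genotype by its low mean there, as no label says so. Values of absent transcripts read up to 6.61, with a 95th percentile of 4.99 that serves as background level. They include the 5.83 of Phe on scrm-D;mute array 4. Where a genotype mean on the dimmer side was below it, a fold is taken against that level and written as at least. All levels below are log2 values, differences are carriers minus non-carriers on the log2 scale with 1 standard error, and array values are given in the order of replicates 2, 3 and 4. In RNA from whole seedlings, fewer cells of a type and less RNA per cell cannot be told apart.

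The early lineage factors SPCH and MUTE were agreeing and higher in carriers, with a large step between the carriers. MUTE (AT3G06120) read 11.00, 10.61 and 10.72 on scrm-D;mute arrays and 6.93, 7.58 and 6.57 on scrm-D arrays, against 4.05, 4.39 and 4.14 on spch arrays and 4.42, 4.49 and 4.52 on WT arrays. Every carrier array was above every non-carrier array, and the non-carriers were all below the background level. The difference between the sides was 4.57 ± 0.15, or at least 15.0-fold, and its largest adjusted p over the 4 comparisons was 7.74e-06. Inside the carriers scrm-D;mute exceeded scrm-D by 3.75 ± 0.21 (adjusted p = 1.56e-07), whereas spch and WT differed by -0.28 ± 0.21 (adjusted p = 0.421). SPCH (AT5G53210) read 10.89, 10.85 and 10.56 in scrm-D;mute and 7.42, 8.17 and 7.13 in scrm-D, against 5.41, 5.11 and 5.41 in spch and 6.15, 6.71 and 6.22 in WT. The difference between the sides was 3.33 ± 0.16 (10.1-fold, largest adjusted p 0.00411), and the step inside the carriers was nearly as large at 3.20 ± 0.23. With the 25S rRNA level as a covariate the largest adjusted p of SPCH was 0.0540, and it was no longer agreeing. The labels do not place the spch and mute lesions, so neither level checks a genotype label, and SCRM itself was not analysed here.

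Genes of later stomatal differentiation were not agreeing, and scrm-D was highest in each of FAMA, BLUS1 and GC1. FAMA (AT3G24140) read 6.10, 5.64 and 5.94 in scrm-D;mute and 9.63, 9.63 and 9.41 in scrm-D, against 6.36, 6.12 and 5.64 in spch and 6.79, 6.84 and 7.07 in WT. The scrm-D arrays were above all others and the scrm-D;mute arrays overlapped those of spch, so that a called mean difference of 1.25 ± 0.13 (adjusted p = 1.01e-05) came with a largest adjusted p of 0.592 over the 4 comparisons. BLUS1 (AT4G14480), a guard cell kinase of blue light signalling, averaged 6.07 ± 0.20 in scrm-D;mute and 10.01 ± 0.22 in scrm-D, against 5.46 ± 0.88 in spch and 6.66 ± 0.27 in WT (SD, n = 3 each). GC1 (AT1G22690), a gene whose promoter is active in guard cells, averaged 8.01 ± 1.09 in scrm-D;mute and 12.69 ± 0.16 in scrm-D, against 9.70, 9.64 and 4.31 on the spch arrays and 10.66 ± 0.25 in WT. Neither guard cell gene was agreeing (largest adjusted p 0.215 for BLUS1 and 0.951 for GC1). The genotype in which they were highest, scrm-D, is the one labelled with a guard cell epidermis, and GC1 was above background on 2 of 3 arrays of spch, the genotype labelled with pavement cells. EPFL9 (AT4G12970), also called STOMAGEN, encodes a peptide made in the mesophyll that promotes stomata. It averaged 6.76 ± 0.56 in scrm-D;mute and 7.82 ± 0.67 in scrm-D, against 8.50 ± 0.79 in spch and 9.05 ± 0.18 in WT, with a largest adjusted p of 0.243. EPFL9 did meet the condition in 4 other fits, with a largest adjusted p of 0.0146 with replicate number as a block, 0.0310 without spch replicate 4, 0.0120 without both arrays that stood apart and 0.00209 without the arrays numbered 4. AGL16, the remaining lineage gene measured, averaged 7.33 ± 0.09 in scrm-D;mute and 7.21 ± 0.16 in scrm-D, against 7.18 ± 0.11 in spch and 7.05 ± 0.07 in WT.

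**Figure D2:**
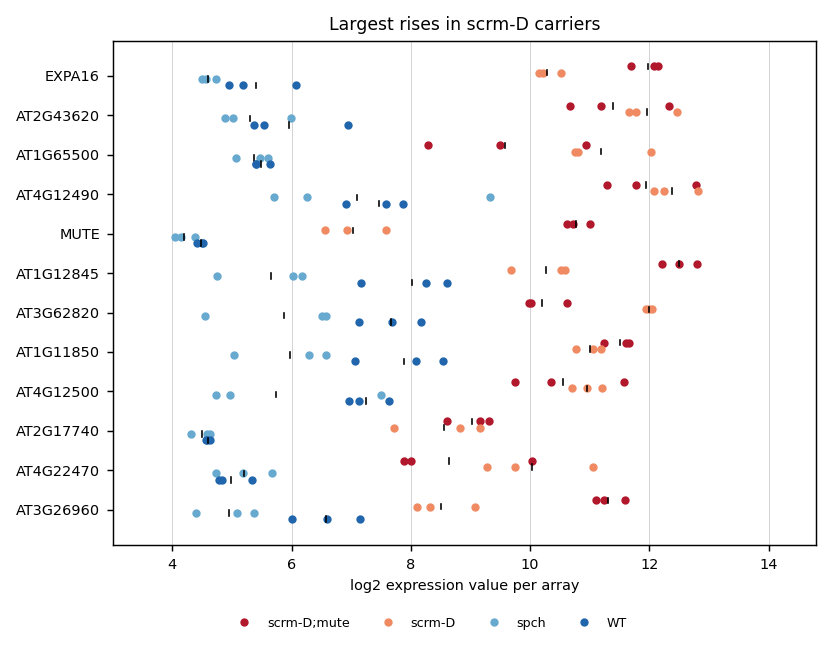
Log2 expression value of each array for the 12 genes with the largest carrier minus non-carrier difference among agreeing genes with no overlap of the sides, with 1 row per gene, colours for the 4 genotypes and a black tick at each genotype mean. All 6 carrier arrays sit to the right of all 6 non-carrier arrays in every row; scrm-D;mute is far above scrm-D for MUTE and AT3G26960, while both carriers lie together for AT2G43620, AT4G12490 and AT2G17740.

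Several cell wall genes rose in both carriers, and 1 had the largest fitted rise. EXPA16 (AT3G55500) encodes an expansin, a protein that loosens the wall. It read 11.70, 12.15 and 12.07 in scrm-D;mute and 10.21, 10.52 and 10.14 in scrm-D, against 4.73, 4.57 and 4.49 in spch and 5.18, 4.94 and 6.08 in WT. No carrier array came within 4 log2 units of a non-carrier array. Its difference of 6.13 ± 0.17, at least 61.3-fold, was the largest among single-gene probe sets (largest adjusted p 2.6e-07), and scrm-D;mute exceeded scrm-D by 1.68 ± 0.24. XTH16 (AT3G23730), which encodes an enzyme that cuts and rejoins xyloglucan, read 11.67, 11.62 and 11.44 in scrm-D;mute and 10.74, 10.95 and 10.21 in scrm-D, against 7.88, 7.81 and 6.80 in spch and 8.40, 8.78 and 8.49 in WT. It was 8.45-fold higher in carriers (3.08 ± 0.18, largest adjusted p 0.000223). ATPMEPCRB (AT4G02330), a pectin methylesterase gene, averaged 8.93 ± 1.04 in scrm-D;mute and 9.84 ± 0.31 in scrm-D, against 5.79 ± 0.35 in spch and 6.37 ± 0.30 in WT, and was 9.89-fold higher (3.31 ± 0.28). The carriers did not differ from each other by the test for this gene (scrm-D;mute minus scrm-D -0.91 ± 0.40, adjusted p = 0.165). Of 4 measured genes of pectin methylesterases and their inhibitors ATPMEPCRB alone was agreeing. In the mean difference 2 of the 4 were higher and 1 lower, where 18% and 16.6% of all probe sets were.

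Not every expansin followed EXPA16. Of 19 measured expansin genes 2 were agreeing and higher and 1 was agreeing and lower, where 2.21% and 3.56% of all probe sets were. The median difference of the 19 was 0.01, against -0.02 over all probe sets. EXPA9 (AT5G02260) read 11.56, 12.01 and 12.03 in scrm-D;mute and 8.60, 9.29 and 8.93 in scrm-D, against 7.53, 7.32 and 8.11 in spch and 7.97, 7.56 and 7.53 in WT. The sides did not overlap, but the step of 2.93 ± 0.23 inside the carriers exceeded the difference of 2.73 ± 0.16 between the sides. EXPA8 (AT2G40610) went the other way, with 5.76, 5.53 and 5.06 in scrm-D;mute and 5.77, 5.80 and 4.95 in scrm-D, against 8.05, 8.23 and 7.19 in spch and 9.53, 9.44 and 8.45 in WT. It was 8.01-fold lower in carriers (-3.0 ± 0.24, largest adjusted p 0.000296), with both carriers at nearly the same level (difference -0.06 ± 0.34). Among 10 measured genes of xyloglucan endotransglucosylases and hydrolases XTH16 was the 1 agreeing member. It was higher, where 2.21% of all probe sets were agreeing and higher. In the mean difference 2 of the 10 were higher and 4 lower, where 18% and 16.6% of all probe sets were. The median difference was 0.11. CSLA03 (AT1G23480), of the mannan synthase family, was 2.78-fold lower (-1.47 ± 0.17, largest adjusted p 0.00859), and that p was 0.109 with the 25S rRNA covariate.

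Most other genes with large shared rises carry a locus name only in the annotation used, and no role is given for them. AT2G43620 read 10.68, 11.19 and 12.32 in scrm-D;mute and 11.77, 11.65 and 12.47 in scrm-D, against 4.89, 5.02 and 5.99 in spch and 5.37, 5.53 and 6.95 in WT. It was 66.5-fold higher in carriers (6.05 ± 0.33, largest adjusted p 6.52e-06), and the genotypes inside the sides differed by -0.57 ± 0.47 (scrm-D;mute minus scrm-D) and -0.65 ± 0.47 (spch minus WT). These last differences were not called, with adjusted p of 0.526 and 0.416, but were with replicate number as a block, with 0.0375 and 0.0148. AT4G12490 and its neighbour AT4G12500 were 29.5-fold and 19.3-fold higher. They are adjacent genes, and whether their probe sets share signal was not tested. AT4G12490 read 11.30, 11.78 and 12.77 in scrm-D;mute and 12.24, 12.08 and 12.82 in scrm-D, against 5.71, 6.25 and 9.33 in spch and 7.59, 7.87 and 6.92 in WT, so spch array 4 was the highest of the non-carriers. That the sides did not overlap was a condition for the 12 largest rises. AT2G17740 was near background in both non-carriers, at 4.51 ± 0.17 in spch and 4.59 ± 0.03 in WT, and averaged 9.03 ± 0.37 in scrm-D;mute and 8.56 ± 0.75 in scrm-D, at least 14.0-fold higher. The remaining genes of the 12 largest rises, AT1G65500, AT1G12845, AT3G62820, AT1G11850, AT4G22470 and AT3G26960, differed by 4.14 to 4.95. AT1G12845 and AT3G26960 were highest in scrm-D;mute, with called steps of 2.23 ± 0.41 and 2.81 ± 0.32 over scrm-D. AT3G62820 was highest in scrm-D, at 11.94, 12.04 and 11.99 against 9.98, 10.02 and 10.62 in scrm-D;mute (scrm-D;mute minus scrm-D -1.78 ± 0.44, adjusted p = 0.0174).

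**Figure D3:**
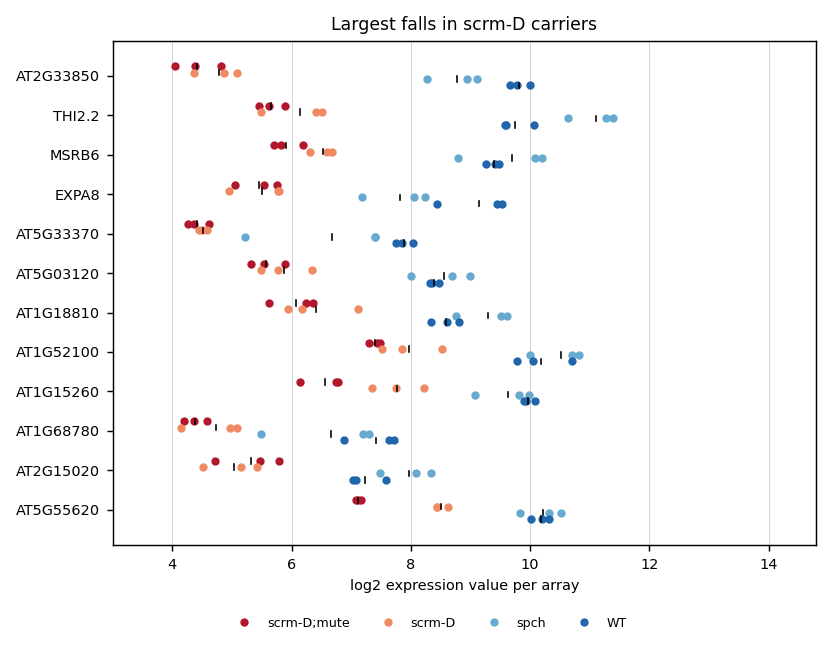
Log2 expression value of each array for the 12 genes with the largest fall in carriers among agreeing genes with no overlap of the sides, drawn as in the plot of the largest rises. All 6 carrier arrays sit to the left of all 6 non-carrier arrays in every row; the carriers of THI2.2 lie between 5.45 and 6.52, and a visible step inside the carriers appears for AT1G15260 and AT5G55620.

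Among the falls, AT2G33850 had the largest difference. It read 4.83, 4.38 and 4.05 in scrm-D;mute and 4.88, 5.09 and 4.37 in scrm-D, against 8.94, 9.10 and 8.27 in spch and a mean of 9.82 ± 0.17 (SD, n = 3) in WT. Both carrier means lay below background and the fall was at least 19.8-fold (-4.70 ± 0.18, largest adjusted p 4.75e-07). THI2.2 (AT5G36910) encodes a thionin, a small cysteine-rich antimicrobial peptide. It read 5.90, 5.62 and 5.45 in scrm-D;mute and 6.52, 6.42 and 5.49 in scrm-D, against 11.27, 11.40 and 10.64 in spch and 9.58, 9.59 and 10.07 in WT, a 23.0-fold fall (-4.52 ± 0.19). The non-carriers differed here too, with spch above WT by 1.35 ± 0.27 (adjusted p = 0.00402). MSRB6 (AT4G04840), a methionine sulfoxide reductase gene whose enzyme repairs oxidized methionine, read 6.18, 5.70 and 5.83 in scrm-D;mute and 6.32, 6.59 and 6.68 in scrm-D, against 10.08, 10.20 and 8.80 in spch and 9.48, 9.27 and 9.42 in WT. It fell by 3.32 ± 0.20 on the log2 scale (largest adjusted p 4.49e-05), with no call inside either side. AT5G33370 averaged 4.41 ± 0.18 in scrm-D;mute and 4.51 ± 0.07 in scrm-D, both at background, against 6.67 ± 1.26 in spch and 7.88 ± 0.14 in WT. The remaining genes of the 12 largest falls, AT5G03120, AT1G18810, AT1G52100, AT1G15260, AT1G68780, AT2G15020 and AT5G55620, differed by -2.75 to -2.39.

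Most measured photosynthesis genes were slightly lower in carriers, and part of them were agreeing. Of 8 measured members of the mesophyll and photosynthesis list, all 8 were lower in the mean difference, where 16.6% of all probe sets were, 4 were agreeing and lower, where 3.56% of all were, none was agreeing and higher, and the median difference was -0.52. PRK (AT1G32060) encodes phosphoribulokinase, which makes the carbon dioxide acceptor of the Calvin cycle. It read 11.91, 11.97 and 11.91 in scrm-D;mute and 11.91, 12.12 and 11.55 in scrm-D, against 13.02, 13.09 and 12.86 in spch and 12.58, 12.90 and 12.88 in WT, a 1.99-fold fall (-0.99 ± 0.10, largest adjusted p 0.00102). SBPASE (AT3G55800), another Calvin cycle enzyme gene, fell by 0.83 ± 0.11 on the log2 scale (largest adjusted p 0.00194). PSAN (AT5G64040), a photosystem I subunit gene, averaged 12.62 ± 0.06 in scrm-D;mute and 12.60 ± 0.21 in scrm-D, against 13.27 ± 0.05 in spch and 13.29 ± 0.02 in WT, so the genotypes inside each side differed by 0.03 in size while the sides differed by -0.67 ± 0.08. PSAE-1 (AT4G28750), a photosystem I subunit gene as well, lay just inside the threshold (-0.42 ± 0.08, largest adjusted p 0.0450) and lost agreement when any 1 of 10 arrays was left out or with quantile normalization (adjusted p 0.209). LHCB4.1 (AT5G01530), an antenna protein gene of photosystem II, lay just outside it (-0.39 ± 0.08, largest adjusted p 0.0607). The other members, LHCB4.2, PSBW and RCA, the Rubisco activase gene, differed by -0.62 ± 0.13, -0.29 ± 0.08 and -0.32 ± 0.06 without agreement. In the family of light-harvesting and photosystem proteins, which shares 3 genes with the list, 4 of 5 were lower in the mean difference and 1, the antenna gene LHCB4.3 (AT2G40100), was higher (0.39 ± 0.13, adjusted p = 0.0334). LHCB4.3 averaged 8.53 ± 0.22 in scrm-D;mute and 8.85 ± 0.04 in scrm-D, against 7.95 ± 0.40 in spch and 8.64 ± 0.21 in WT, and was not agreeing. The mean log2 level over the 8 genes was 12.57 to 12.75 on scrm-D;mute arrays and 12.47 to 12.77 on scrm-D arrays, against 13.12 to 13.27 on spch arrays and 13.22 to 13.31 on WT arrays. Of all probe sets with a highest genotype mean of at least 12, 523 in number, 13.8% were agreeing and lower, against 0.575% of those with one below 6, and the part of brightness or of mesophyll content in these falls was not tested.

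Genes of cell division were higher in the mean difference but not agreeing. All 4 measured genes of G2 and mitosis and all 4 of DNA replication were higher in the mean difference, where 18% of all probe sets were, with medians of 0.92 and 0.66, and none of the 8 was agreeing. The Aurora kinase gene AUR1 (AT4G32830) read 9.10, 9.24 and 9.24 in scrm-D;mute and 8.30, 8.52 and 8.26 in scrm-D, against 7.05, 6.95 and 6.70 in spch and 8.14, 8.56 and 8.31 in WT. The values of scrm-D and WT overlapped, with scrm-D;mute above them and spch below them. AUR2, AUR3, the spindle checkpoint gene BUBR1, PRL, which encodes the MCM7 subunit of the replicative helicase, CENH3, the centromeric histone, and POLA3 and ICU2, both DNA polymerase alpha subunits, had largest adjusted p values from 0.446 to 0.965. The mean log2 level of the 4 mitotic genes was 8.16 to 8.29 in scrm-D;mute and 7.09 to 7.41 in scrm-D, against 6.05 to 6.59 in spch and 7.26 to 7.44 in WT.

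Defence genes moved both ways. Of 8 measured members of the defence list, 2 were agreeing and higher and 1, THI2.2, was agreeing and lower, where 2.21% and 3.56% of all probe sets were. The median difference of the 8 was 0.68. The defensin gene PDF1.4 (AT1G19610) read 9.09, 8.73 and 10.26 in scrm-D;mute and 9.79, 9.39 and 10.16 in scrm-D, against 6.11, 6.21 and 7.23 in spch and 4.60, 4.58 and 5.07 in WT, at least 14.1-fold higher in carriers (3.94 ± 0.26). By contrast PDF1.2 and PDF1.2b were high in scrm-D alone, at 9.23 ± 0.94 and 9.73 ± 1.02, while scrm-D;mute averaged 6.31 ± 0.49 and 5.75 ± 0.53, spch 6.10 ± 0.29 and 5.34 ± 0.06, and WT 6.95 ± 0.39 and 6.97 ± 1.02. These 2 genes encode closely related defensins, so their probe sets may share signal. Of 7 measured WRKY factor genes 3 were agreeing and higher and none lower, against the same 2.21% and 3.56% of all probe sets. Their median difference was 0.82, and 2 of the 3 calls depended on single arrays, as given below. WRKY6 (AT1G62300), a transcription factor gene linked to senescence and defence, read 9.54, 9.19 and 9.38 in scrm-D;mute and 9.13, 8.89 and 9.08 in scrm-D, against 7.03, 6.45 and 7.57 in spch and 7.11, 6.79 and 6.99 in WT, and was 4.63-fold higher (2.21 ± 0.16, largest adjusted p 6.67e-05). WRKY47 (1.23 ± 0.19) and WRKY53 (1.42 ± 0.26) lost agreement when scrm-D;mute replicate 4 was left out, with largest adjusted p of 0.0531 and 0.154, and WRKY53 also without any 1 of 6 other arrays.

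Other groups had few agreeing members. The 24 measured cytochrome P450 genes were matched by name, and most of them belong to the CYP71B subfamily. Of these 24 genes 3 were agreeing and higher and 1 lower, where 2.21% and 3.56% of all probe sets were. On the mean difference 4 were higher and 4 lower, where 18% and 16.6% of all probe sets were, and the median difference was -0.06. The 3 agreeing and higher genes, CYP71B23, CYP71B24 and CYP71B36, are related sequences that lie within 100 genes of SCRM. Their probe sets may share signal, so they need not be separate observations. CYP71B24 (AT3G26230) was at least 4.06-fold higher, with 6.54 to 7.85 on carrier arrays and 4.19 to 4.57 on non-carrier arrays. Of 12 glutathione S-transferase genes GSTU26 (AT1G17190) alone was agreeing, and it was higher, where 2.21% of all probe sets were. It read 10.38, 10.44 and 9.86 in scrm-D;mute and 8.46, 9.15 and 8.34 in scrm-D, against 7.21, 7.17 and 6.86 in spch and 7.31, 7.23 and 7.54 in WT (2.21 ± 0.15). In the mean difference 2 of the 12 were higher and 4 lower, where 18% and 16.6% of all probe sets were. UGT76C1 (AT5G05870), which encodes an enzyme that conjugates cytokinins to glucose, was the 1 agreeing gene of 43 UDP-glycosyltransferases (-0.73 ± 0.10). It was lower, where 3.56% of all probe sets were agreeing and lower. In the mean difference 4 of the 43 were higher and 14 lower, where 18% and 16.6% of all probe sets were. None of 29 serine carboxypeptidase genes was agreeing, against 2.21% and 3.56% of all probe sets. In the mean difference 1 of the 29 was higher and 4 were lower, against 18% and 16.6%. Among 8 auxin genes YUC2 (AT4G13260), of auxin synthesis, was agreeing and lower (-0.70 ± 0.11, largest adjusted p 0.0166), a call lost without scrm-D;mute replicate 2, scrm-D;mute replicate 4 or WT replicate 3. Of all probe sets 3.56% were agreeing and lower. In the mean difference 3 of the 8 were lower and 0 higher, where 16.6% and 18% of all probe sets were. Both anthocyanin genes measured, DFR and UF3GT, were lower in the mean difference with WT alone high. DFR averaged 5.11 ± 0.50 in scrm-D;mute and 6.33 ± 0.24 in scrm-D, against 5.76 ± 0.87 in spch and 9.08 ± 0.59 in WT. None of the 5 genes of the cold regulon was agreeing, and COR15A averaged 7.19 ± 1.25 in scrm-D;mute and 9.17 ± 1.45 in scrm-D, against 5.01 ± 0.47 in spch and 9.10 ± 0.67 in WT. None of the measured markers of other cell types was agreeing apart from the photosynthesis genes: the trichome regulator TRY, the root hair expansins EXPA7 and EXPA18 and the meristem genes CLV3 and FD did not meet the condition, EXPA18 alone passed on the mean difference (0.84 ± 0.14), CLV3 and FD were below background in all genotypes, and no vascular marker was measured.

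**Figure D4:**
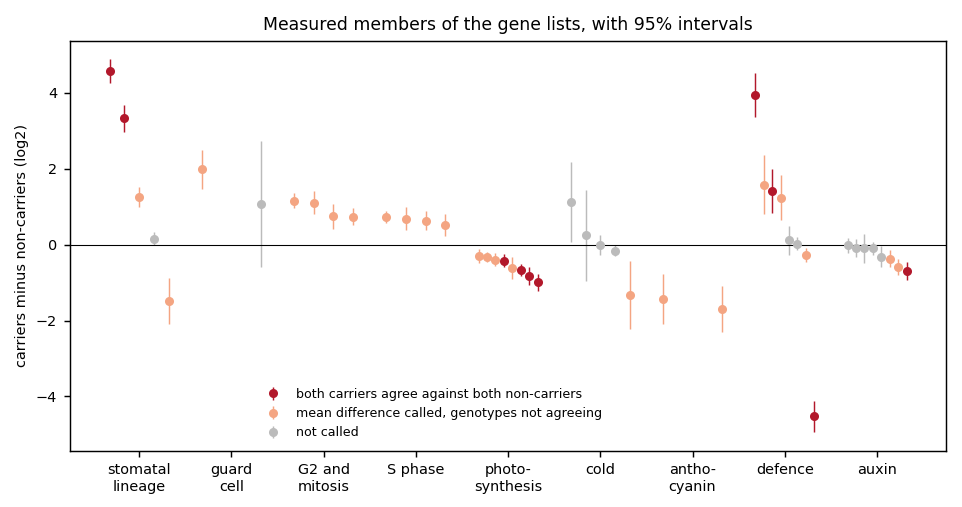
Carrier minus non-carrier log2 difference with its 95% interval for each measured member of 9 gene lists, ordered within a list by size. Dark red marks genes on which both carriers agreed against both non-carriers, orange genes called on the mean difference only, and grey genes not called; all 8 cell division genes are orange, and 4 of 8 photosynthesis genes are dark red and below 0.

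The spread between genotypes inside each side was measured by the same fit. Of the 809 agreeing probe sets lower in carriers, 575 (71.1%) had no call between the carriers or between the non-carriers, against 264 (52.5%) of the 503 that were higher. The share of all probe sets with no call inside either side was not counted, so neither share has a baseline here. Over all probe sets scrm-D;mute was called above scrm-D for 7.45% and below it for 5.94%, and spch above WT for 9.6% and below it for 9.93%. In either direction, the carriers differed by call in 8.41% of the 809 and 35.2% of the 503. The non-carriers did so in 21.8% and 24.3%. Among those higher in carriers scrm-D;mute was above scrm-D for 146 and below it for 31, and spch was below WT for 112 and above it for 10. Among those lower in carriers scrm-D;mute was below scrm-D for 64 and above it for 4, and spch was above WT for 132 and below it for 44. The median size of the difference between the carriers was 0.35 in the group that was higher and 0.15 in the group that was lower, against 0.17 over all probe sets, and that between the non-carriers was 0.22 and 0.24, against 0.18. With replicate number as a block, 520 of the 809 and 235 of the 503 had no call inside a side. The agreeing probe sets were chosen on the same genotype means, so these shares are a description. In 32 of those higher, EXPA9 among them, and in 6 of those lower, the difference between the sides was smaller than the larger difference inside a side.

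**Figure D5:**
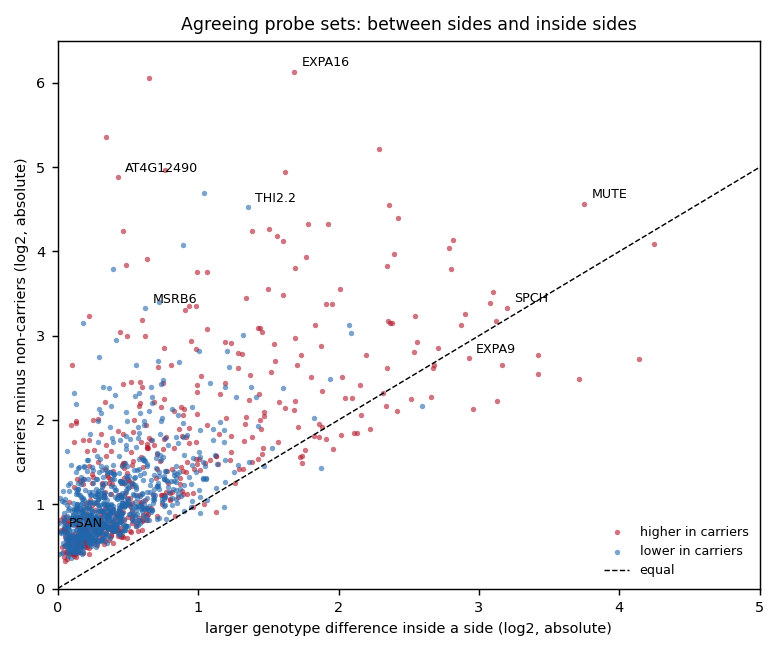
Each point is an agreeing probe set, with the larger of the 2 genotype differences inside a side (absolute log2) on the horizontal axis and the absolute difference between the sides on the vertical axis; the dashed line marks equality. Points higher in carriers (red) spread further right than those lower (blue), EXPA9 lies just under the line, and PSAN and AT4G12490 have genotype differences well below 1.

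Genes were also ranked by the ratio of the difference between the sides to the larger difference inside a side. The ranking was limited to agreeing genes without overlap of the sides that differed by at least 1. PSAN, with a smaller difference, had a ratio of 24.8, against 21.6 for AT5G37360, the highest ranked. The ratio compares genotype means and leaves out the spread of arrays. AT5G37360 read 9.16, 9.18 and 9.05 in scrm-D;mute and 9.46, 9.07 and 8.94 in scrm-D, against 10.22, 10.28 and 10.19 in spch and 10.10, 10.21 and 10.23 in WT. The sides differed by -1.06 ± 0.09 and the genotypes inside them by -0.03 ± 0.13 and 0.05 ± 0.13. AT1G19620 was the largest rise of this kind after AT4G12490, with 8.16, 7.88 and 7.27 in scrm-D;mute and 7.78, 8.15 and 7.88 in scrm-D, against 4.72, 4.63 and 4.19 in spch and 4.77, 4.88 and 4.56 in WT, all non-carriers being below background (at least 7.28-fold). AT5G53500 fell by 1.26 ± 0.09 on the log2 scale, AT5G64380 by 1.22 ± 0.15, AT1G52510 by 1.16 ± 0.13 and AT4G12830 by 1.43 ± 0.27, the last of these losing agreement without any 1 of 6 arrays. AT3G47480 rose by 1.97 ± 0.19, with both non-carrier means below background. Smaller differences of the same kind were seen for bHLH34 (-0.41 ± 0.08), a bHLH factor gene, and for the glutaredoxin gene GRXC2 (0.50 ± 0.08), with the genotypes inside each side at most 0.03 apart, although bHLH34 lost agreement without any 1 of 5 arrays and GRXC2 without WT replicate 4.

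A graded order, spch below WT below scrm-D below scrm-D;mute with every step called, held for 43 of the 503 probe sets that were higher. The reverse order with every step called held for 6 of the 809 that were lower. In all, 22746 probe sets were tested. Agreement itself requires the step between WT and scrm-D to be called, so only the steps inside the sides are additional. EXPA16, AT1G12845, AT3G26960, SPCH and XTH16 were among 28 named genes with the order rising from spch to scrm-D;mute. Others, chosen after their values were seen, included RR16 (AT2G40670), a type A response regulator of cytokinin signalling, which averaged 9.31 in scrm-D;mute and 7.35 in scrm-D, against 4.41 in spch and 5.50 in WT. SOL1 (AT3G22760), whose symbol is shared with another locus and which was therefore not counted in the lineage list, averaged 10.70 in scrm-D;mute and 8.14 in scrm-D, against 6.04 in spch and 6.95 in WT. The genotypes of the upper step both carry scrm-D and differ, per the labels, in the mute mutation.

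The carriers went opposite ways, 1 called above both non-carriers and the other called below both, for 25 probe sets (0.11% of those tested). In 23 of these scrm-D was the higher carrier. AT3G20300 read 5.42, 5.18 and 4.75 in scrm-D;mute and 8.48, 8.44 and 8.05 in scrm-D, against 5.62, 5.74 and 6.05 in spch and 6.10, 6.18 and 6.04 in WT. AT5G47550 averaged 8.63 ± 0.17 in scrm-D;mute and 10.84 ± 0.11 in scrm-D, against 10.01 ± 0.23 in spch and 9.87 ± 0.08 in WT, and its mean difference of -0.20 ± 0.09 between the sides hid both shifts.

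By position in the reference gene order, agreeing genes were spread over the 5 chromosomes, with 4.98% to 5.66% of the measured genes of each. Within 100 genes on either side of SCRM 9 of 104 measured genes were agreeing (8.65%), 6 higher and 3 lower, against 5.32% of 12224 placed genes, and within 50 genes 5 of 49 were (10.2%). Near MUTE the count was 4 of 93 (4.30%). The genes near SCRM, chosen after their values were seen, included CYP71B23, CYP71B24 and CYP71B36, which are related sequences whose probe sets may share signal, and AT3G26960, AT3G27400, AT3G26450, AT3G26580, AT3G26700 and AT3G25940. CYP71B23 averaged 8.27 in scrm-D;mute and 8.58 in scrm-D, against 6.59 in spch and 5.60 in WT, and AT3G27400 averaged 8.98 in scrm-D;mute and 8.47 in scrm-D, against 4.96 in spch and 6.41 in WT. The counts are small and are given without a test.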

How the data were processed

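The series measured total RNA of whole seedlings on 12 Affymetrix arrays. The values deposited by the authors are log2 expression levels, 1 for each array and probe set. RMA and limma are named, with no version or role, in the submitters' processing notes. The sources used here name no genome build, and coordinates are left out. The deposited log2 values, 3.13 to 14.63, went unchanged into limma 3.58.1 (R 4.3.3), which fitted the mean of each genotype from all 12 arrays with default moderation, at prior degrees of freedom of 4.41. All tests are two-sided, and p-values are Benjamini-Hochberg adjusted over 22746 probe sets per comparison, after 64 control probe sets were left out. Every adjusted p is limma's, and the largest of the 4 decides agreement. The fitting code was tested on simulated data. The files give no detection calls, and precision is limited by the number of arrays.

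In the platform annotation 13513 probe sets have 1 gene and 503 have several. Of the 13513, 13436 matched the reference annotation TAIR10.1, used for symbols and gene order. A gene with several probe sets is represented by the brightest. Named are the 12 largest rises and falls among agreeing genes whose sides did not overlap, the 8 with the largest ratio of the difference between the sides to that inside them among those differing by at least 1, up to 4 agreeing members of each list and 3 of each family, measured list members, the 6 carriers' opposed genes with the largest difference between the carriers, and SPCH, MUTE, FAMA, SCRM and EPFL9. The comparison, the 13 lists and the 24 families were chosen with earlier results of these data known. Families are genes with a single-gene probe set whose symbol or synonym matched a name pattern, so they are not whole families. Only 51 of 345 list members were measured under a single-gene probe set. Loci of ambiguous symbols, GC1, FAMA, EPFL9, SCRM, FDH and LCR, were set by hand after the files were opened. Families of under 4 measured genes are not described as groups. Replicate numbers were checked as pairs by correlating deviations from the genotype means. Same-number correlations exceeded 0.1 in 16 of 18 pairs of arrays, and those of different numbers in 5 of 36. Every one did in 4 of 6 genotype pairs, including scrm-D;mute with scrm-D (0.215 to 0.525) and spch with WT (0.138 to 0.174), so these count as paired by the values. The lowest was 0.0338 for scrm-D with spch and 0.0826 for scrm-D;mute with WT, so those do not. What a shared number stands for is not labelled, the fit has no block, and blocked values are given where they change a call printed for a named gene. The block also changed calls inside a side that are not printed above. Between the carriers, limma's adjusted p went from 0.117 to 0.00538 for AT4G22470, from 0.061 to 0.00111 for DFR and from 0.271 to 0.00583 for UF3GT. Between the non-carriers it went from 0.111 to 0.0154 for AT4G12500, and other named genes changed as well. The alternatives tried were leave-one-out fits, the replicate number as a block, other normalizations, filters, thresholds, variance models, weights, a 25S rRNA covariate and 2-group designs.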

Additional observations from a re-analysis of the deposited data

Results flagged for a closer look

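The carriers' effects differed in direction for 6 named genes, in each of which scrm-D was called above both non-carriers and scrm-D;mute below both. The scrm-D;mute minus scrm-D difference was -3.21 for AT3G20300 (adjusted p = 1.56e-07), -2.78 for AT1G77020 (adjusted p = 2.02e-07), -2.66 for AT5G18460, -2.38 for SBTI1.1, a subtilisin-like protease gene, -2.21 for AT5G47550 and -2.16 for AT3G11210, all by limma. AT1G77020 averaged 4.97 ± 0.28 in scrm-D;mute and 7.75 ± 0.21 in scrm-D, against 5.51 ± 0.05 in spch and 5.53 ± 0.22 in WT (SD, n = 3 each). A signal outside the comparison appeared in a control: the bacterial Phe control transcript read 5.83 on scrm-D;mute replicate 4, against 4.15 and 3.94 on the other scrm-D;mute arrays and 13.1 to 13.5 on the scrm-D arrays, the genotype in which this transcript was high.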

How the results depend on the processing

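No named gene past its test changed sign under the alternatives run. Named genes not called in the mean difference did cross 0, among them COR15B (-0.43 to 0.68), SAG101 (-0.15 to 0.40), GH3.3 (-0.36 to 0.02) and SBTI1.1 (-0.04 to 0.30). LTI30, IAA20 and LCR67 crossed 0 as well. Higher calls outnumbered lower ones among mean differences (52.1%) but not with median centring (41.1%), genotype as a random block (44.0%), quantile normalization (49.8%) or WT alone (49.6%), and the reverse held among agreeing probe sets at 2-fold (38.3% against 54.8%). Leaving out both arrays that stood apart was chosen after seeing the data. The 503 agreeing probe sets higher and 809 lower in carriers became 247 and 384 at an adjusted p under 0.01, 187 and 154 where every comparison had to reach 2-fold, and 992 and 1215 where the arrays of the sides had only to stand apart with the mean difference called. Mean difference calls, 4105 higher and 3775 lower, became 660 and 543 with at least 2-fold, 2441 and 2437 in a 2-group fit without genotype, and 852 and 1085 with genotype as a random block, and the higher ones 2649 against WT alone. Agreeing probe sets with a call inside a side, 473, became 161 at an adjusted p under 0.01, 140 with at least 2-fold, 264 with the 25S rRNA covariate and 295 to 459 leaving out 1 array. The 25 opposed probe sets became 8, 4 and, without the arrays numbered 4, 42, and 14 to 34 leaving out 1 array. With the 25S rRNA covariate 344 of the 503 and 505 of the 809 were still agreeing, and CYP71B29, UGT76C1, LEA4-5, PSBY, bHLH34 and AT4G12830 lost agreement. With the replicate block 664 and 1012 were agreeing, 721 of these had a call inside a side, and the mean difference was called for 4561 and 4254. What separates these settings was not tested beyond their construction. Weak signal limits the 8872 probe sets with no genotype mean of 6 or more, 27 and 51 of which were agreeing.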
